A study of Mus musculus with 12 samples.

Results

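Adult epididymal fat was compared between male mice whose dams had eaten a high-fat diet during gestation and mice that never met that diet, and the question was whether any microRNA had shifted in the same direction in every exposed group. The exposed side was formed by 9 pooled samples and the unexposed side by 3, which together are the 12 samples of the series. All mice were wild-type C57BL/6J, were born to parents on a standard breeding diet until mating, and were killed at 23 weeks. The control group CD received a purified diet with 10% of its energy from fat in every period of life. The high-fat diet, with 45% of its energy from fat, was given in utero only in the group UT, in utero and during lactation in the group UL, and in utero, during lactation and after weaning in the group WL. The 12 mice of a group were combined into 3 pools, so no value belongs to a single animal. Besides exposure in utero, UL and WL shared exposure during lactation, and WL alone ate the high-fat diet at the time of sampling. The exposed mean gave UT, UL and WL equal weight.

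MicroRNAs are short RNAs that pair with messenger RNAs, mainly through the bases called the seed near their 5′ end, and lower the output of those messengers. Several of them steer the formation of fat cells, the storage of lipid and the inflammatory state of fat. Diets met before birth or before weaning are known to leave lasting marks on metabolism in rodents, and microRNAs of adipose tissue have been studied as carriers of such marks.

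Levels were measured by quantitative PCR, where the threshold cycle (Ct) comes earlier when more template is present. The level used here is the mean Ct of a pool over the 466 microRNAs measured in all 12 pools, minus the Ct of the microRNA. It is a log2 scale if each assay doubles its product per cycle, and a difference of 1 cycle is then a 2-fold difference. The table held 504 microRNAs with Ct between 15.06 and 37.04, and 55 values over 38 microRNAs were missing, between 0 in UL 1 and 14 in UT 2. The mean Ct of the complete microRNAs was 24.87 over the exposed groups and 24.83 in CD (two-sided exact permutation test, p = 0.664). Missing microRNAs per pool averaged 4.78 and 4.00 (exact permutation test, p = 0.836). The level of the reference RNA RNU-43 was 7.11 over the exposed groups and 7.48 in CD (exact permutation test, p = 0.173), and that of U6-snRNA, measured in 10 pools, was 9.49 and 9.56 (exact permutation test, p = 0.783). With Benjamini-Hochberg adjustment over these 4 tests the p-values were 0.691 or more. The tests ran over 220 splits of the 12 pools, and over 120 splits of 10 pools for U6-snRNA. Of 22 pro-adipogenic microRNAs, 21 lay above the average microRNA, with miR-21a-5p at 7.94, as did 18 of 24 anti-adipogenic ones. Among lists of other cells, the highest member ran from miR-192-5p at 0.63 (liver) to miR-126a-3p at 7.47 (endothelial). It was miR-742-3p at 4.69 for testis and epididymis.

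Mature sequences are shown for the microRNAs that led the comparison, because many of them belong to a few families with shared or nested seeds. They were taken from RefSeq on the build GRCm38.p6, to which 413 of the 504 assays could be matched, 393 of them by the exact name. Capitals mark the seed, bases 2 to 8 from the 5′ end.
miR-291b-5p: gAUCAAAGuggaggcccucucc
miR-291b-3p: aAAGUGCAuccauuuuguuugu
miR-302b-5p: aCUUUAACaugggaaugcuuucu
miR-302c-5p: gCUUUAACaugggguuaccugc
miR-302c-3p: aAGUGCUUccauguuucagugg
miR-302d-3p: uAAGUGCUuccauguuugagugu
miR-20b-5p: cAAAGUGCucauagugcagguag
miR-494-3p: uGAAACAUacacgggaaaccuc
miR-135b-3p: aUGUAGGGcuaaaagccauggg
miR-484: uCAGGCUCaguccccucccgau
miR-351-3p: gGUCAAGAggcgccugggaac
miR-693-5p: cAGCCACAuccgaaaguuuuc

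The assay named miR-494 was taken as the 3p arm because the 5p arm has an assay of its own. Both arms of miR-291b lie at chr7:3219494-3219515 and chr7:3219529-3219550 on the plus strand, in the cluster of miR-290 to miR-295 that is typical of embryonic stem cells. The arms of miR-302b, miR-302c and miR-302d lie on the plus strand of chromosome 3, from chr3:127545238-127545260 for miR-302b-5p to chr3:127545665-127545687 for miR-302d-3p, within the span of the gene Larp7. They belong to the cluster of miR-302 and miR-367, which is active in pluripotent cells. MiR-20b-5p at chrX:52742159-52742181 and miR-351-3p at chrX:53053276-53053296, both on the minus strand, come from separate X-linked clusters. MiR-494 at chr12:109715367-109715388 on the plus strand belongs to the imprinted Dlk1-Dio3 cluster, as do miR-329-5p, miR-376b-5p and miR-485-3p. MiR-135b-3p at chr1:132198142-132198163 lies within the span of Lemd1, miR-693-5p at chr17:46231551-46231571 within that of Xpo5, the exporter of microRNA precursors, and miR-484 at chr16:14159630-14159651 within no annotated gene span, all on the plus strand.

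Exposure in utero was accompanied by few differences shared by the 3 groups. In the limma model of the 4 groups, 3 of 504 microRNAs passed an adjusted p of 0.05 for the exposed mean against CD (0.595%), all 3 of them higher (0.595%) and 0 lower (0.00%). They were miR-291b-5p, miR-135b-3p and miR-494, and all 3 had missing or late values in the control pools. At an unadjusted p under 0.05 there were 31 microRNAs (6.15%), 27 higher (5.36%) and 4 lower (0.794%). The p-values measure the spread between pools. In whole tissue, fewer cells of a type and less RNA per cell cannot be told apart.

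MiR-291b-5p had a Ct of 35.92 in CD 1 and no value in CD 2 or CD 3. Its Ct was 28.34 in UT 3, the only UT pool with a value, 27.97, 27.75 and 27.53 in UL 1 to 3, and 27.24, 27.76 and 28.50 in WL 1 to 3. The 7 exposed values therefore lay within 1.26 cycles of each other and the single control value came at least 7.42 cycles later. The level differed by 8.12 (SE 0.52, limma adjusted p = 0.000323), with 7.84 in UT, 8.30 in UL and 8.22 in WL. The fit had no spread within CD or UT for this microRNA, with 1 value in each, and took it from UL and WL. Without CD 1 there was no control value and no fit, and without UT 3 no UT value and no fit.

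MiR-135b-3p, the partner arm of miR-135b-5p, had a Ct of 36.69 in CD 3 and no value in CD 1 or CD 2. Its Ct was 32.11, 32.20 and 32.72 in UT, 32.26, 32.46 and 32.77 in UL, and 31.27, 32.36 and 31.36 in WL. All 9 exposed pools had a value and all came before the single control value. The difference in level was 4.51 (SE 0.47, limma adjusted p = 0.00104), with 4.21 in UT, 4.24 in UL and 5.07 in WL. With 1 control value, the SE and p hold no control spread, and without CD 3 there was no control value and no fit. The other arm, miR-135b-5p, was measured in all pools and differed by -0.34 (SE 0.72, limma adjusted p = 0.992).

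Control pools gave miR-494 at Ct 25.11 (CD 1), 34.04 (CD 2) and 34.37 (CD 3). Its Ct was 22.99 in UT 3, with no value in UT 1 and UT 2, then 20.00, 19.82 and 20.04 in UL and 19.62, 19.60 and 19.94 in WL. Each exposed value came before each control value, but the control pools spread over 9.26 cycles while the UL and WL pools spread over 0.44. The difference in level was 10.43 (SE 1.76, limma adjusted p = 0.0313), with 8.42 in UT, 11.33 in UL and 11.56 in WL. The call was made in 15 of 28 other settings. Without CD 1 the adjusted p was 1.44e-08, without CD 2 it was 0.141 and without CD 3 it was 0.0637. MiR-494-5p differed by -0.49 (SE 0.25, limma adjusted p = 0.992).

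MiR-20b-5p, of the X-linked cluster of miR-106a to miR-363, had the same layout without passing. Its single control value was a Ct of 34.53 in CD 1, and its exposed values ran from 27.20 in WL 2 to 31.59 in UT 3, with UT 1 and UT 2 missing. The difference in level was 5.36 (SE 1.05, limma adjusted p = 0.0989). A missing value was left missing here and was not counted as absence of the microRNA. When Ct of 35 or later was also set to missing, when only microRNAs measured in all 12 pools were kept, or when at least 2 values in every group were required, 0 microRNAs passed by limma, and 27 had an unadjusted p under 0.05 in each of these settings.

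**Figure D1:**
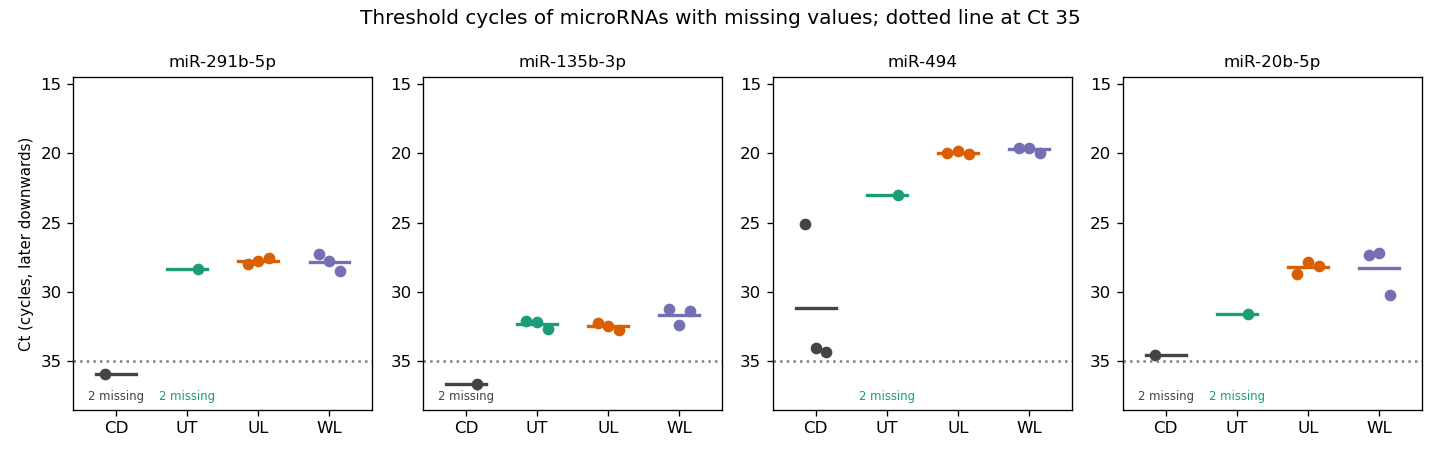
Threshold cycles of the 3 microRNAs past the threshold, miR-291b-5p, miR-135b-3p and miR-494, and of miR-20b-5p in each pool of CD, UT, UL and WL, with Ct in cycles on a reversed vertical axis so that more template is higher. Points are pools, horizontal lines are group means, the dotted line marks Ct 35, and the count of missing pools stands under each group; every panel but that of miR-494 has 1 control value.

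A second measure asked for complete separation. Among the 466 microRNAs measured in all 12 pools, 8 had all 9 exposed pools on one side of all 3 CD pools (1.72%), 7 higher (1.50%) and 1 lower (0.215%). None of these 8 passed the limma test, where their adjusted p lay between 0.0943 and 0.588, and the 3 microRNAs that passed could not enter the count because of missing values. The means of UT, UL and WL all lay on one side of CD in 183 of 466 microRNAs (39.3%), 78 higher (16.7%) and 105 lower (22.5%). These 3 differences share their control pools, so a control pool that stands out moves all of them together, and the count is given as a description.

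MiR-291b-3p, the opposite arm of miR-291b-5p, had levels of -8.81, -11.48 and -9.39 in CD. These control values came late, at Ct 33.61, 36.27 and 34.28. The levels were -6.98, -6.48 and -7.40 in UT, -7.68, -8.27 and -7.47 in UL, and -8.62, -8.00 and -7.20 in WL. The lowest exposed pool, WL 1, lay 0.18 above the highest control pool, CD 1, and CD 2 was the lowest of all. The difference was 2.33 (SE 0.51, limma adjusted p = 0.0943), with 2.94 in UT, 2.09 in UL and 1.95 in WL. With the median deviation of neighbouring assays in accession order subtracted it was -0.10 (SE 0.77). These neighbours include its opposite arm and other leading microRNAs, so the subtraction also removes any shift that they share.

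MiR-302b-5p had levels of -8.94, -10.32 and -7.32 in CD, at Ct 33.74, 35.11 and 32.21. They were -6.20, -6.27 and -6.74 in UT, -7.08, -6.94 and -7.18 in UL, and -6.78, -7.19 and -6.87 in WL. The exposed pools spanned 0.99 cycles and the control pools 3.00, with CD 3 within 0.14 of the nearest exposed pool. The difference was 2.06 (SE 0.47, limma adjusted p = 0.0989), with 2.46 in UT, 1.80 in UL and 1.91 in WL. It was -0.49 (SE 0.38) with neighbouring assays subtracted, which here too include leading microRNAs.

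MiR-351-3p, of the X-linked cluster that also holds miR-322 and miR-503, had levels of 2.34, 2.34 and 2.55 in CD. Its levels were 3.26, 3.75 and 4.48 in UT, 3.41, 2.63 and 3.37 in UL, and 3.62, 3.58 and 3.58 in WL. The control pools were tight, and UL 2 was the exposed pool closest to them, 0.08 above CD 3. The difference was 1.11 (SE 0.29, limma adjusted p = 0.161), a 2.16-fold level if PCR doubles per cycle. Its opposite arm miR-351-5p differed by 0.94 (SE 0.39, limma adjusted p = 0.613).

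MiR-484, which is known to restrain mitochondrial fission through Fis1, had levels of 1.63, 1.87 and 1.79 in CD. The levels were 2.51, 2.57 and 2.09 in UT, 2.77, 2.31 and 2.25 in UL, and 3.13, 2.87 and 3.31 in WL. WL was the highest group and UT 3 the lowest exposed pool, 0.22 above CD 2. The difference was 0.88 (SE 0.23, limma adjusted p = 0.161), with 0.63 in UT, 0.68 in UL and 1.34 in WL.

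The 3p arm of miR-378, a regulator of lipid and mitochondrial metabolism, had levels of -0.23, -0.57 and -0.35 in CD. Its levels were 0.73, 0.58 and -0.11 in UT, 0.94, -0.18 and 0.02 in UL, and 1.30, 0.85 and 1.14 in WL. UL 2 lay only 0.05 above CD 1, so the separation was narrow in UT and UL and wider in WL. The difference was 0.97 (SE 0.29, limma adjusted p = 0.259), and the 5p arm differed by 0.06 (SE 0.33, limma adjusted p = 0.992).

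MiR-486, abundant in red cells and muscle, had levels of 2.73, 3.39 and 3.25 in CD and of 3.47 to 4.24 in the 9 exposed pools, a difference of 0.73 (SE 0.27, limma adjusted p = 0.511). The difference of miR-486 was -0.06 (SE 0.24) with neighbouring assays subtracted. The opposite arm, miR-486-3p, differed by -0.21 (SE 0.25, limma adjusted p = 0.992). MiR-451a, another erythroid microRNA, was the lowest of the 3 erythroid members with -0.22. MiR-483, which lies in the growth factor gene Igf2 and has been linked to early nutrition in fat, had levels of 0.23, 0.41 and 0.41 in CD. Its levels were 0.47, 0.86 and 0.49 in UT, 1.57, 0.56 and 0.63 in UL, and 1.35, 1.38 and 1.89 in WL. The lowest UT pool lay 0.05 above the control pools, and the difference was 0.67 (SE 0.27, limma adjusted p = 0.588), with 0.26 in UT, 0.57 in UL and 1.19 in WL.

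MiR-693-5p was the only one of the 466 with all exposed pools below all control pools. Its levels were -5.10, -5.44 and -5.23 in CD, -6.78, -6.42 and -6.23 in UT, -6.25, -5.90 and -6.54 in UL, and -6.51, -8.13 and -6.01 in WL. The gap of 0.46 between the nearest pools was the widest of the 8, and WL 2 was the lowest pool. The difference was -1.27 (SE 0.39, limma adjusted p = 0.259), and it was -0.97 (SE 0.34) with neighbouring assays subtracted. Its opposite arm miR-693-3p differed by -0.04 (SE 0.36, limma adjusted p = 0.992).

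Just past the edge of this count, miR-485-3p overlapped the control pools by 0.05 cycles, miR-686, miR-485-5p and let-7f-5p by 0.10 each, and miR-329-5p by 0.11. The count of 8 rose to 18 without CD 3 and to 13 without CD 1 or without CD 2. It was 3 when Ct was used as deposited, without centring on the mean of the pool. With Ct of 35 or later set to missing it was 6. MiR-291b-3p and miR-302b-5p then left the count, because each has a control value past Ct 35.

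**Figure D2:**
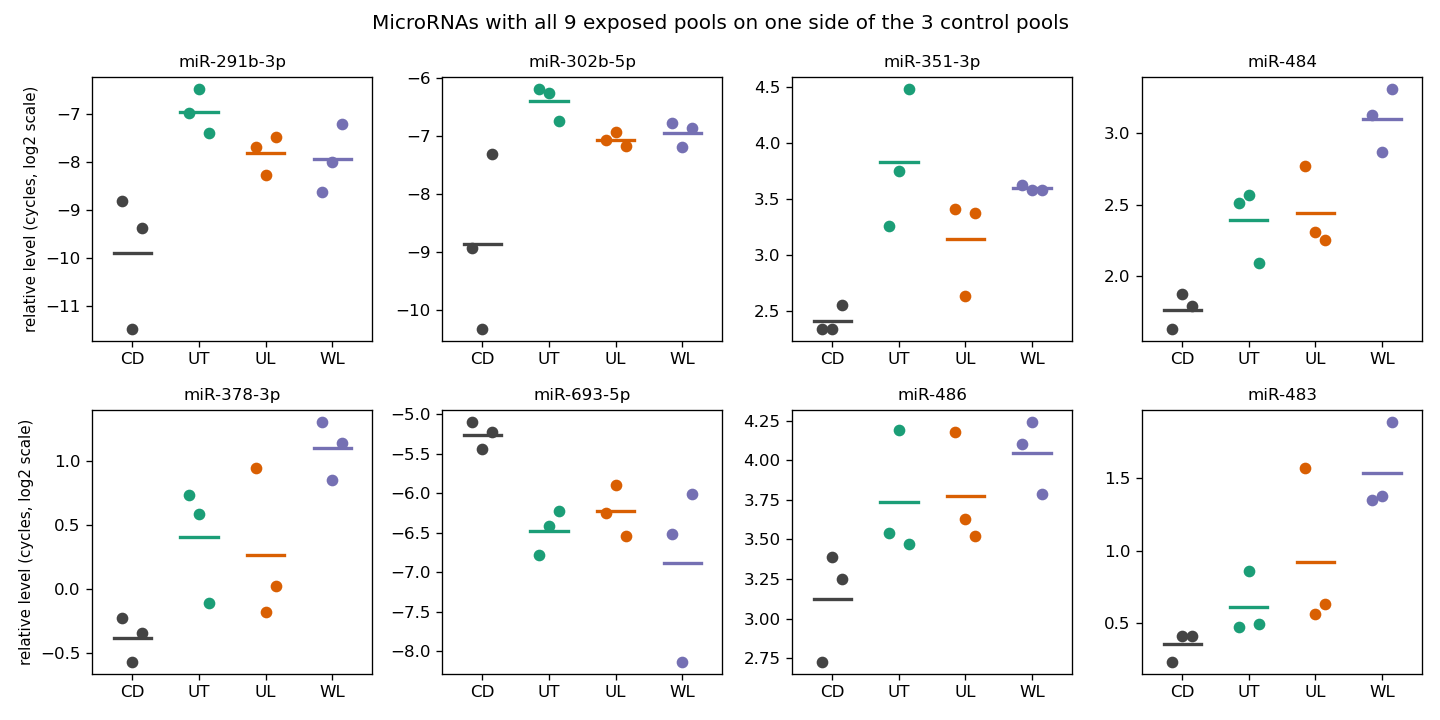
Relative level (cycles, log2 scale) of the 8 microRNAs with all 9 exposed pools on one side of the 3 CD pools, for CD, UT, UL and WL. Points are pools and lines are group means; miR-693-5p is the one below CD, and the gap between the nearest pools runs from 0.05 for miR-483 and miR-378-3p to 0.46 for miR-693-5p.

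The size of the shared shift was then set as the condition. In 19 of the 466 complete microRNAs (4.08%) the means of UT, UL and WL all differed from CD in the same direction and by at least 0.5, 15 of them higher (3.22%) and 4 lower (0.858%). At a size of at least 1 there were 7 (1.50%), 7 higher (1.50%) and 0 lower (0.00%). They were miR-291b-3p, both arms of miR-302c, miR-302b-5p and miR-302d-3p of the same cluster, and the Dlk1-Dio3 members miR-376a-5p and miR-376b-5p. The 4 lower ones at the smaller size were miR-693-5p, miR-135a-5p (-1.40, SE 0.80), miR-30d-3p (-1.02, SE 0.78) and miR-194-5p (-0.67, SE 0.36), the last a microRNA of liver and gut. The limma adjusted p of these last 3 was 0.992 each.

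MiR-302d-3p had levels of -8.32, -10.25 and -5.21 in CD and of -6.29 to -4.26 in the exposed pools. The difference was 2.70 (SE 0.80, limma adjusted p = 0.259). MiR-302c-3p had levels of -7.21, -8.51 and -3.56 in CD and of -5.53 to -3.38 in the exposed pools, a difference of 2.34 (SE 0.81, limma adjusted p = 0.411). In both, CD 1 and CD 2 lay below every exposed pool and CD 3 lay among them. The Ct of miR-302d-3p in CD 2 was 35.04.

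MiR-302c-5p showed the same order, with -5.95, -6.49 and -4.10 in CD and -4.55 to -2.83 in the exposed pools, a difference of 1.62 (SE 0.49, limma adjusted p = 0.259). MiR-376b-5p, of the Dlk1-Dio3 cluster, had -7.18, -11.11 and -4.02 in CD and -4.78 to -3.55 in the exposed pools, a difference of 3.28 (SE 1.02, limma adjusted p = 0.272). Its Ct in CD 2 was 35.90. Its opposite arm, the assay named miR-376b, differed by 0.40 (SE 0.27, limma adjusted p = 0.992). Without CD 3, 6 microRNAs passed the limma test: miR-291b-5p, miR-302b-5p, miR-302c-3p, miR-302c-5p, miR-302d-3p and miR-376b-5p. Without CD 2, none of these but miR-291b-5p passed, and the differences were 1.44 for miR-376b-5p, 1.54 for miR-302d-3p, 1.30 for miR-302c-3p, 1.13 for miR-302c-5p and 1.33 for miR-302b-5p (limma adjusted p 0.493 to 1.00). For miR-291b-3p the difference was 1.54 without CD 2 and 2.87 without CD 1.

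The groups did not always share the shift behind a large exposed mean. MiR-592-3p, within the span of the glutamate receptor gene Grm8, differed by 2.77 (SE 0.92, limma adjusted p = 0.333), with 5.42 in UT, 0.76 in UL and 2.12 in WL. Its levels were 0.57, -0.02 and 0.01 in UT and 0.46 in WL 3, against -5.81 to -4.00 in the other 8 pools. MiR-676-3p, within the span of Eda, differed by 1.73 (SE 0.64, limma adjusted p = 0.511), with 4.04 in UT, -0.15 in UL and 1.32 in WL, and the same 4 pools were high, between 1.04 and 1.70. The opposite arm miR-676-5p was low in these same 4 pools, at -2.19, -2.44 and -1.28 in UT and -2.40 in WL 3. It lay at 1.18 to 1.77 in the other 8 pools. MiR-758-5p had the lowest difference of all 504 microRNAs, -2.06. With the values of miR-592-3p and miR-758-5p, and of both arms of miR-676, exchanged in these 4 pools, the differences of miR-592-3p and miR-676-3p were 0.60 and 0.18. Whether assays were exchanged was not tested.

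MiR-184-5p differed by 1.16 (SE 0.35, limma adjusted p = 0.259), with 2.50 in UT, 0.48 in UL and 0.49 in WL. Its levels were 1.25, 0.88 and 0.82 in UT and -1.90 to -0.07 in the other 9 pools. UT therefore stood apart, while UL and WL overlapped CD. For differences among UT, UL and WL, the limma F test called 0 of 504 microRNAs (0.00%), with 51 at an unadjusted p under 0.05 (10.1%). Against CD by group, 7 microRNAs passed in UT (1.39%) and 3 each in UL and WL (0.595%). MiR-184-5p (limma adjusted p = 0.0165 for UT against CD), miR-592-3p, miR-676-3p and miR-291b-3p were among the 7 in UT.

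**Figure D3:**
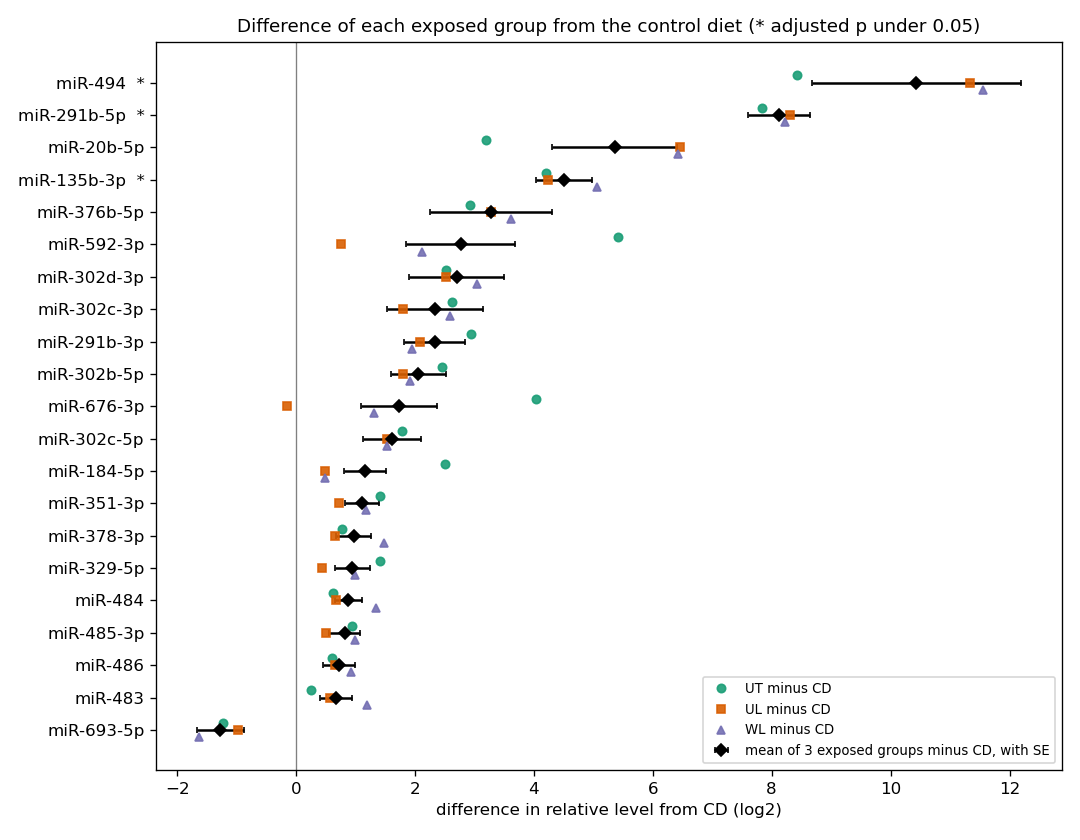
Difference in relative level from CD (log2) for the microRNAs that led the comparison or separated completely. Diamonds with bars are the mean of the 3 exposed groups with its SE, coloured marks are UT, UL and WL, and asterisks mark the 3 with an adjusted p under 0.05; the 3 groups lie close together for miR-291b-5p and far apart for miR-592-3p.

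The leading microRNAs lay close together in the order of the accession numbers that the table gives for its assays. Of the 20 with the smallest p, 17 (85.0%) had another of the 20 within 3 places, as did 43 of the 476 other microRNAs with an accession (9.03%). The 12 assays at places 242 to 253 were miR-494, miR-20b-5p, miR-503, both arms of miR-291b, miR-302b and miR-302c, then miR-302d-3p, miR-376a-5p and miR-376b-5p. They held 9 of the 20, and 12 of 12 had an exposed mean above CD, by 1.55 to 10.43. This stretch was chosen after its values were seen and has no test.

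Within that stretch, the median deviation of a pool from the exposed mean of each assay was -3.11 for CD 1 and -3.91 for CD 2, but -0.10 for CD 3. Over the exposed pools it ran from -0.43 in UT 3 to 0.61 in UT 2. These are medians, and single assays differed from them. For miR-494, CD 3 was the lowest pool at -9.48 and CD 1 stood at -0.31. For miR-291b-3p and miR-302b-5p, CD 3 also lay below every exposed pool. CD 2 had no value for miR-291b-5p, miR-20b-5p and miR-302b-3p. Another 5 neighbours at places 228 to 232 were miR-484, both arms of miR-485, miR-486 and miR-378-3p, of which 4 are among the 20. Their median deviations were -1.12, -0.58 and -0.75 in CD and -0.49 to 0.55 in the exposed pools.

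Members of the same clusters whose assays stood outside places 242 to 253 lay on both sides of 0. Of 55 such Dlk1-Dio3 assays 26 lay above 0, from -2.06 for miR-758-5p to 0.95 for miR-329-5p, which is among the 20. Of 18 from the miR-17-92 cluster and its paralogs 10 lay above 0, from -0.52 for miR-92a-1-5p to 1.54 for miR-363-5p (SE 0.63), at place 462. Of 8 from the cluster of miR-290 to miR-295, 4 lay above 0, up to 0.72 for miR-295-3p (SE 0.61), and of 4 from the cluster of miR-302 and miR-367, 2 lay above 0, up to 0.30 for miR-367-5p (SE 0.56).

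Among these, miR-302d-5p, at place 490, differed by -0.15 (SE 0.29, limma adjusted p = 0.992) although it shares its hairpin with miR-302d-3p and its seed CUUUAAC with miR-302b-5p and miR-302c-5p. MiR-302a-3p differed by -0.32 (SE 0.35). MiR-291a-5p, with the seed AUCAAAG of miR-291b-5p, differed by -0.25 (SE 0.40), and miR-291a-3p by 0.05 (SE 0.29). The correlation of pool deviations between adjacent assays was 0.31 over 495 pairs of neighbours that share their pools. The place of the assays on a plate or card is not known here, and the part of accession order in the differences was not tested.

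Subtracting the median deviation of the 3 neighbours on each side also removes any shift that neighbouring cluster members or leading microRNAs share. With it subtracted, 2 microRNAs passed the limma test. MiR-291b-5p differed by 4.78 (SE 0.58, adjusted p = 0.0239) and miR-135b-3p by 3.98 (SE 0.52, adjusted p = 0.0182). The difference was 9.03 for miR-494 (SE 2.33, adjusted p = 0.402), 0.48 for miR-351-3p (SE 0.30) and 0.27 for miR-484 (SE 0.19). Complete separation was then seen in 5 microRNAs, of which 1, miR-693-5p, was among the 8.

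**Figure D4:**
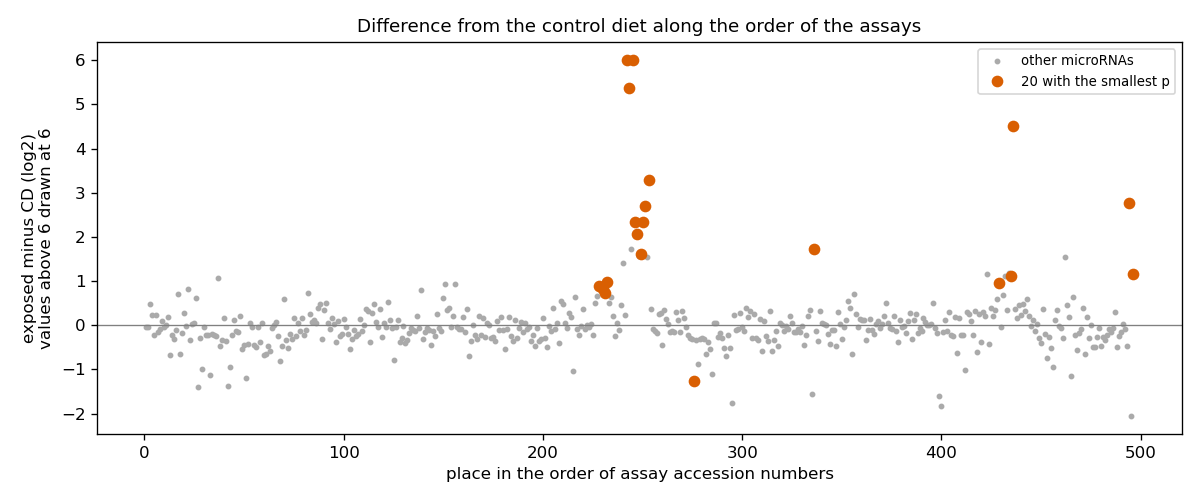
Difference between the exposed mean and CD (log2) of each microRNA against its place in accession order, with the 20 smallest p marked. Points above 6 are drawn at 6; 13 of the 20 marked points stand between places 228 and 253.

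Sequence grouped the leading microRNAs only in part. The letters AAGUGC lie within the seeds of miR-302b-3p, miR-302d-3p, miR-291b-3p and the miR-17 family. In miR-302c-3p they start at base 1, so its seed AGUGCUU holds only part of them. They were searched for in the first 9 bases of each mature microRNA, in the RNA as read 5′ to 3′. They occurred in 14 of the 413 matched assays (3.39%) and in 19 of the 1679 mature mouse microRNAs of RefSeq (1.13%). Of the 14, 11 lay above 0 and 3 below, with a median difference of 0.46 against -0.05 over all matched assays. The letters were picked after the leading microRNAs were seen, and leading microRNAs are among the 14. This median is therefore partly set by that choice and has no test. Assays without a matched sequence could not be counted, and miR-302a-3p (-0.32) is not among the 14. The 14 included 4 leading microRNAs, miR-20b-5p, miR-291b-3p, miR-302c-3p and miR-302d-3p, whose assays stand between places 243 and 251.

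The other 10 ran from -0.37 to 1.57. With the seed AAAGUGC of miR-20b-5p, miR-17-5p differed by 0.21, miR-106a-5p by 0.17, miR-106b-5p by 0.03, miR-93-5p by -0.06 and miR-20a-5p by -0.37. These 5 came at a mean Ct of 19.16 to 23.52, far earlier than miR-20b-5p at 29.44. Some members of other seed groups lay on the same side of 0: miR-302b-5p and miR-302c-5p with CUUUAAC (2.06 and 1.62), miR-302d-3p and miR-302b-3p with AAGUGCU (2.70 and 1.57), and miR-291b-3p and miR-350-5p with AAGUGCA (2.33 and 1.18). Others of these groups did not, such as miR-302d-5p with CUUUAAC (-0.15) and miR-294-3p with AAGUGCU (-0.10). The difference of miR-302b-3p (SE 1.01, limma adjusted p = 0.992) rests on 2 control values. They were -11.83 in CD 1, at Ct 36.63, and -7.48 in CD 3, which lay above the exposed mean of -8.08.

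Lists of microRNAs with known roles were read against all 504 microRNAs, of which 218 lay above 0 and 286 below, with a median of -0.06. Of the 504, 3 passed the threshold (0.595%), so 0 calls in a short list is close to that share. The mTOR-targeting list, which the title of the series makes of interest, had 0 of 22 members past the threshold, 9 above 0 and 13 below, and a median of -0.10. Its medians were -0.22 in UT, -0.09 in UL and 0.09 in WL. The lowest member was miR-101a-3p (-0.68) and the highest miR-16-5p (0.36).

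The pro-adipogenic list had 0 of 22 members past the threshold, 9 above 0 and 13 below, and a median of -0.05. Its lowest member was miR-143-3p (-0.52), which promotes adipocyte differentiation, and its highest was miR-378-3p (0.97). The anti-adipogenic list had 0 of 24 past the threshold and a median of -0.05, from miR-130b-3p (-0.38), which targets Pparg, to miR-31-5p (0.52). In both lists the medians were lowest in UT, -0.29 and -0.16, and highest in WL, 0.13 and 0.04.

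The early-life nutrition list had 0 of 13 past the threshold, 5 above 0 and 8 below, with a median of -0.26 and group medians of -0.61 in UT, -0.07 in UL and 0.22 in WL. Its extremes were the arms of one endothelial hairpin. MiR-126a-5p had levels of 6.36, 6.79 and 6.14 in CD, 7.80, 7.56 and 8.02 in UT, 6.50, 6.67 and 7.25 in UL, and 7.04, 6.28 and 7.18 in WL. UT was the highest group, and UL and WL overlapped CD. The difference was 0.71 (SE 0.28, limma adjusted p = 0.570) for miR-126a-5p and -0.64 (SE 0.38, limma adjusted p = 0.992) for miR-126a-3p.

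Of 15 microRNAs raised in obese fat, 0 passed, 3 lay above 0 and 12 below, with a median of -0.21. The highest was miR-146a-5p, which dampens inflammatory signalling, at 1.06 (SE 0.71, limma adjusted p = 0.992). Of 19 lowered in obese fat 0 passed, with a median of -0.24, and of 18 linked to thermogenic fat 0 passed, with a median of -0.06. Among clusters, the 58 Dlk1-Dio3 assays divided into 29 above and 29 below 0 with 1 call, miR-494, and the 10 assays of the cluster of miR-290 to miR-295 had a median of 0.11 with 1 call, miR-291b-5p.

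The 9 assays of the cluster of miR-302 and miR-367 had a median of 1.57, 7 above 0 and 2 below, and 0 calls. The group medians were 0.65 in UT, 1.53 in UL and 1.53 in WL. Of the 9, 6 had a mean Ct of 30 or later. The median was -0.03 without CD 1, 0.23 with Ct of 35 or later set to missing and 0.06 with neighbouring assays subtracted.

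Markers of other cells in the fat pad had 0 calls in every list, close to the share of 0.595% over all 504. The epithelial list had the lowest median, -0.58, with 1 of 11 members above 0, and the group medians were -1.32 in UT, -0.13 in UL and -0.14 in WL. The median level of its members ran from 1.22 to 2.80 in the CD pools, 0.49 to 1.37 in UT, 1.38 to 2.64 in UL and 1.31 to 1.89 in WL, and every member had a mean Ct before 30. For stromal and smooth muscle markers the median was -0.25, 2 of 10 lay above 0, and the median level ran from 4.87 to 5.29 in CD, 3.93 to 4.59 in UT, 4.32 to 5.40 in UL and 4.67 to 5.12 in WL.

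The testis and epididymis list had a median of 0.34 with 9 of 13 above 0, and 0.87 in UT, 0.03 in UL and -0.28 in WL. Leukocyte, erythroid, liver, muscle, neural and endothelial lists had medians of -0.21, -0.21, -0.25, -0.13, -0.03 and 0.04. The part of other cells in the differences was not tested.

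**Figure D5:**
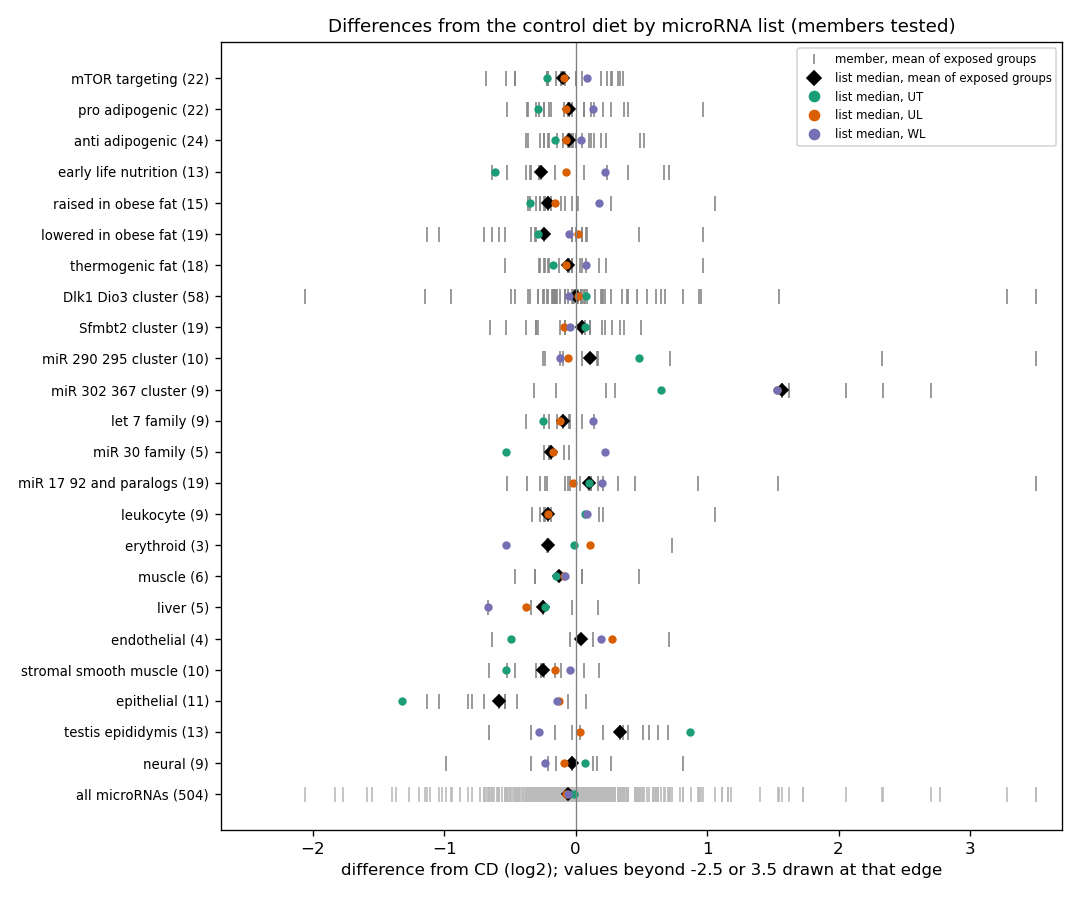
Difference between the exposed mean and CD (log2) of the members of each list of microRNAs, with all 504 for comparison. Ticks are microRNAs, diamonds are medians of the exposed mean and dots are medians of UT, UL and WL, and values beyond the axis are drawn at its edge; the cluster of miR-302 and miR-367 has the highest median, 1.57, and the epithelial list the lowest, -0.58.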

How the data were processed

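MicroRNAs were measured by quantitative RT-PCR in total RNA of epididymal fat, isolated with the miRNeasy kit per the labels' protocols. Per the file headers, the authors' table analysed here holds threshold cycles (Ct) without normalization. The PCR platform, its chemistry and the rule for the threshold were not given in the sources used here. Normalized values stand in another deposited table, as ratios of 2 to the power of minus delta Ct per the file headers. Tested on the values, these ratios grow with later Ct, opposite to that header, so their sign was turned where they served as an alternative scaling.

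Of 507 table rows, 1 repeated another and was dropped, which left 504 microRNAs and 2 reference RNAs. MicroRNAs needed a Ct before 35 in 3 or more samples, which removed 0. Levels were fitted in R 4.3.3 with lmFit and eBayes of limma 3.58.1, using 1 model of 4 groups over 12 pools. The contrast was the mean of UT, UL and WL minus CD, two-sided, with Benjamini-Hochberg adjustment over 504 microRNAs. The prior degrees of freedom were 3.36, and the median SE of the contrast was 0.35. An F test covered differences among UT, UL and WL. The number of pools limits the precision, and litters did not enter the model. The code was tested on simulated data.

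The microRNAs named were all that passed, completed to 20 by the next smallest p, those with complete separation, and the extremes of 23 lists with 354 entries, of which 56 matched no assay. The members and lists were chosen with earlier results of these data known. Opposite arms, seed relatives, cluster members and neighbours in accession order were named after their values were seen. The arms of miR-378 were told apart by the accession of the assay, and 8 microRNAs without an accession were left out of the accession order. Alternatives covered centring, late and missing values, the model, single pools, single groups, 2 exchanged assay pairs and the subtraction of neighbouring assays.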

Additional observations from a re-analysis of the deposited data

How the results depend on the processing

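Across 31 alternatives, 31 of 38 named microRNAs kept their direction in every setting that could be fitted. MiR-291b-5p differed by 4.78 to 8.86 and miR-135b-3p by 3.38 to 4.99 over the 26 settings in which each was fitted. Each has 1 control value and could not be fitted without that pool (CD 1 for miR-291b-5p, CD 3 for miR-135b-3p). MiR-291b-5p also has 1 UT value and could not be fitted without UT 3. Neither was fitted where late values were removed or where more values were required. The count of 3 microRNAs past the threshold was 0 with Ct of 35 or later set to missing, with microRNAs measured in all 12 pools only, and with at least 2 values in every group. It was 6 when centred on RNU-43, which moved the median of all microRNAs from -0.06 to 0.32, 6 without UT 2 and WL 3, and 9 (7 higher and 2 lower) without the group WL. Leaving out 1 pool gave 1 (without UT 3) to 7 (without WL 3). Complete separation, seen in 8, was found in 5 when centred on the median Ct, on RNU-43, without microRNAs of mean Ct of 30 or later, or with neighbouring assays subtracted, and in 3 with Ct as deposited. Leaving out 1 pool gave 8 to 18. Without a whole group it was 12 (UT), 12 (UL) and 11 (WL). Differences among UT, UL and WL, 0 in the main analysis, were 2 when centred on RNU-43, 9 with array weights, 11 without UT 2 and WL 3, 7 without the group WL, and 0 to 9 when 1 pool was left out (9 without WL 3, 1 without CD 1).

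Some single differences turned their sign. MiR-30c-5p was 0.13 when centred on RNU-43, miR-98-5p was 0.14 without the group UT, and miR-31-5p was -0.08 without UT replicate 3 (up to 0.95 when another single pool was left out). With neighbouring assays subtracted, miR-486 was -0.06, miR-302b-5p -0.49, miR-291b-3p -0.10 and miR-302c-5p -0.51. The cause was not tested. Pools with the same replicate number did not deviate together (correlations -0.27 to 0.26 over 18 pairs, and -0.35 to 0.31 over 36 pairs with different numbers), and with the replicate number as a block 3 microRNAs passed, the same 3, with 34 in place of 31 at an unadjusted p under 0.05. Of 713 list medians, 39 moved by more than the spread between replicates. Control values past Ct 35 and control groups with 1 value limit these calls, as does the single UT value of miR-291b-5p and of miR-494.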

Other observations

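Of 9 let-7 family members, which hold back growth and insulin signalling, 0 passed the limma threshold, which 3 of all 504 passed (0.595%). Of these 9, 2 lay above 0 and 7 below, and the median difference between the exposed mean and CD was -0.10. MiR-98-5p was the lowest at -0.38 (SE 0.27), with -1.43 in UT, -0.04 in UL and 0.31 in WL. Of 5 miR-30 family members, which favour adipocyte differentiation, 0 passed and 5 lay below 0, with a median of -0.19. The medians by group were -0.53 in UT, -0.17 in UL and 0.22 in WL, so the 3 exposed groups did not share a direction. The 19 measured members of the imprinted Sfmbt2 cluster had a median of 0.05, with 10 above 0 and 9 below, and miR-467b-3p was the extreme at -0.65 (SE 0.38). The 19 assays of the miR-17-92 cluster and its paralogs had a median of 0.10, and 3 had an unadjusted p under 0.05, as did 31 of all 504 (6.15%).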
